A study of Mus musculus with 28 samples.

Results

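A group of 9 genes of the liver's response to fasting (the PPAR alpha and fasting genes) was followed through liver, pancreas and lung of mice that express the human cytidine deaminase APOBEC3B (A3B). They are Cyp4a10, Cyp4a14, Pdk4, Cpt1a, Acot1, Ehhadh, Angptl4, Vnn1 and Fgf21. They were chosen by name, as known targets of the nuclear receptor PPAR alpha or genes of the fasted state, and make up 9 of the 35928 gene symbols in the transcript-level files and 9 of the 24823 gene rows used in the table of gene-level values. The choice was made with earlier results of these data known. Their counts and medians beside all genes are therefore a description, not a test.

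The study fed 4-week-old mice food pellets with 625 ppm doxycycline to switch on A3B fused to turboGFP, placed behind a tetracycline operator at the ColA1 locus, by a ubiquitous CAGs-rtTA3 driver. RNA-seq was made in 2 sets. In the kallisto set, the authors deposited estimated counts and TPM (a length-scaled share of the transcripts of a library) per transcript for livers of 6 A3B mice (44, 48, 49, 125, 137 and 153) and 2 controls (45 and 168), and for pancreases of 6 A3B mice (44, 49, 53, 125, 137 and 153) and the same 2 controls, all with 10 days of treatment in the labels. In the second set, called the TPM table, only TPM per gene was deposited, for 3 A3B livers (23 and 28 at 14 days, 70 at 10 days) against 3 control livers (11, 91 and 92) and for 3 A3B lungs (69, 70 and 74 at 10 days) against 3 control lungs (87, 88 and 91), with 15 days in the labels of every control. A3B mice are titled as samples and carry A3B + CAGS-rtTA. Controls of the kallisto livers carry A3B alone, as do controls 88, 91 and 92, while control lung 87 carries the CAGs driver alone. The genotype labels go against the titles for A3B pancreases 44 and 137 (A3B alone) and for control pancreases 45 and 168 and control liver 11 (both transgenes), and the title was followed. Sources disagree on whether controls received doxycycline. The labels and the study's methods say that they did, but its mouse list gives none for most controls of the TPM table, and a figure legend calls the pair of controls of the liver and pancreas RNA-seq untreated, where the mouse list gives 10 days. Where controls had none, the treatment and the transgenes cannot be told apart. A3B mice were taken at a humane end point and controls were not, so A3B expression and illness cannot be told apart. Doxycycline food was freely available, and how much the animals ate before sampling is not given in the sources used here. The transgene was built in an embryonic stem cell line that also carries an rtTA at Rosa26, which the study bred out before crossing to the CAGs driver.

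PPAR alpha is a ligand-activated transcription factor that is most active in liver, heart and other tissues that burn fat. During fasting, fatty acids released from adipose tissue activate it, and it raises genes for fatty acid transport into mitochondria, for oxidation in mitochondria, peroxisomes and the endoplasmic reticulum, and for ketone body production. Several of the 9 genes also answer to glucocorticoids, to low insulin or to amino acid stress, so none of them reads PPAR alpha alone.

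On GRCm38, the mouse genome build named in the submitters' processing notes, and in the GENCODE M21 annotation, Cyp4a10 (ENSMUSG00000066072.13) lies at chr4:115518264-115533649 on the plus strand and Cyp4a14 (ENSMUSG00000028715.2) beside it at chr4:115486200-115496142 on the minus strand. Pdk4 (ENSMUSG00000019577.6) lies at chr6:5483351-5496309 on the minus strand, Cpt1a (ENSMUSG00000024900.5) at chr19:3322334-3385733 on the plus strand and Acot1 (ENSMUSG00000072949.6) at chr12:84009490-84018371 on the plus strand. Ehhadh (ENSMUSG00000022853.7) lies at chr16:21761287-21787807 on the minus strand, Angptl4 (ENSMUSG00000002289.16) at chr17:33773750-33781830 on the minus strand, Vnn1 (ENSMUSG00000037440.8) at chr10:23894688-23905343 on the plus strand and Fgf21 (ENSMUSG00000030827.5) at chr7:45613886-45615490 on the minus strand.

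Cyp4a10 and Acot1 belong to clusters of related genes, near-identical in the case of Cyp4a10, and reads from such genes can be split between copies. Of all 31-base words in the Cyp4a10 transcripts, 44.9% also occur in transcripts of other genes, 36.5% in Cyp4a32 alone. For Acot1 the share was 22.8%, with 16.7% in Acot2, and for the other 7 genes it was at most 2.31%. The coding sequence of Cyp4a10 is 97.18% identical to that of Cyp4a32 and 96.59% to that of Cyp4a31, but 75.1% to that of Cyp4a14, and Acot1 is 85.58% identical to Acot2. The first 30 coding bases of the Cyp4a genes, all within 1 exon, show how close Cyp4a31 and Cyp4a32 are and how far Cyp4a14 is, with capitals at bases that differ from Cyp4a10.
Cyp4a10, chr4:115518322-115518351, plus strand: atgagtgtctctgctctaagcccaacccga
Cyp4a31, chr4:115563717-115563746, plus strand: atgagtgtctctgctctaagccTGacccga
Cyp4a32, chr4:115600975-115601004, plus strand: atgagtgtctctgctctaagcccGacccga
Cyp4a14, chr4:115496084-115496113, minus strand: atgGgtTtTtTtTTATtTagcccTacAAgG
The values of Cyp4a10 therefore stand for this gene with an uncertain share of Cyp4a32 and Cyp4a31, while Cyp4a14 is counted almost free of its relatives.

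RefSeq promoters on GRCm38.p6, from 250 bases before to 50 after the start site, were matched for 5 of the 9 genes (Pdk4, Cpt1a, Acot1, Ehhadh and Fgf21). Each was searched on both strands for AGGTCA (the hexamer bound by PPAR alpha and other nuclear receptors), its direct repeat spaced by 1 base (which holds that hexamer), TTGCATCA (a site of C/EBP and ATF factors, used in amino acid stress), CACGTG (an E-box), GTAAACA (a FOXO site) and TGACGTCA (a cyclic AMP response element). Cpt1a held the hexamer on the opposite strand, ending 89 bases before the RefSeq start, which lies inside the GENCODE gene span given above because that annotation begins further upstream. Of all 32851 promoters of this length, 16.3% hold this hexamer. Fgf21 held TTGCATCA ending 132 bases before its start, against 0.895% of all promoters, and CACGTG ending 45 bases before it, against 7.15%. The motifs are in capitals below.
Cpt1a receptor hexamer, chr19:3323195-3323224, plus strand: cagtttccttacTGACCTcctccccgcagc
Fgf21 C/EBP-ATF site, chr7:45615611-45615640, minus strand: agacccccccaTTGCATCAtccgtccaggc
Fgf21 E-box, chr7:45615523-45615552, minus strand: gagtggggagggCACGTGggcgggcctgtc
The windows of Pdk4, Acot1 and Ehhadh held none of the letters searched, and no window held the direct repeat, the FOXO site or the cyclic AMP response element. A match is a description of these letters, not a bound site.

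The total of estimated counts ranged from 65161064 to 118976013 per liver and from 74836907 to 95604352 per pancreas, and depth is unknown for the TPM table. The transgene, listed as human APOBEC3B in the TPM table only, had 705 to 1705 TPM in A3B livers and 90.6 to 281 TPM in A3B lungs, against at most 0.526 TPM in any control, control liver 11 included. The tissue labels held: summed TPM of the 9 hepatocyte markers measured was 46690 to 117300 in A3B livers and 113800 to 177000 in control livers of the kallisto set, acinar markers summed to 62610 to 169300 TPM in A3B pancreases and 221700 to 237500 TPM in controls, and alveolar type II and club cell markers to 17810 to 19770 TPM in every lung. In the control pancreases 62.4% and 59.7% of counts fell on just 10 genes, against 12.1% to 20.6% in A3B pancreases, so in TPM 70.8% of all genes tested were higher in every A3B pancreas than in both controls. Pancreas levels of the 9 genes are therefore given as CPM (counts relative to the library total) scaled by TMM, which sets the bulk of genes equal between samples. Hepatocyte markers were detected in every lung, with summed levels of 1030 TPM in control lung 88, 842 and 749 TPM in A3B lungs 74 and 70, 88.0 TPM in control 91, 15.5 TPM in A3B 69 and 1.65 TPM in control 87. In bulk tissue, fewer cells of a type and less RNA per cell cannot be told apart.

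In the livers of the kallisto set, Pdk4 and Cyp4a14 rose in A3B mice at an adjusted p under 0.05, and none of the 9 genes fell (background 2.41% lower). All 9 genes passed the filter on low values in every comparison, and the share of all 17376 genes tested that were called higher was 1.25%. That count of 218 genes was 878 with library totals in place of TMM, and it was 3 without control 168, 10 without control 45, 43, 45, 87 and 153 without A3B livers 44, 137, 125 and 153, 375 without A3B liver 48 and 653 without A3B liver 49. The median log2 fold change of the 9 genes was 1.67, against 0.21 over all genes tested. In the pancreas Pdk4, Cpt1a, Acot1, Ehhadh and Angptl4 rose and Fgf21 fell, which is 5 higher against a background of 17.0% and 1 lower against a background of 14.9% of 19142 genes. With library totals in place of TMM 13483 of these genes were called higher and 210 lower, against 3252 and 2848, and of the 9 genes 7 were higher, Vnn1 and Cyp4a10 added, and Fgf21 was still lower. Markers of other cell types moved in the same samples, with calls on the TMM scale and sums in TPM: macrophage markers summed to 1171 to 3506 TPM in A3B pancreases against 37.9 and 511 TPM in controls (5 of 7 rose), fibroblast markers to 967 to 1477 against 39.8 and 172 TPM (5 of 6 rose), and ductal markers to 312 to 725 against 12.2 and 50.6 TPM (3 of 5 rose). Of skeletal muscle markers 4 of 5 fell (5.23 to 7.58 against 2.66 and 39.4 TPM), of endocrine markers 2 of 7 fell (3758 to 13290 against 3434 and 3509 TPM), of 8 adipocyte markers 1 rose and 1 fell (147 to 1086 against 53.9 and 656 TPM), and 9 of 10 acinar markers fell. None of these lists had a marker at 0 in all samples of a group, and their part in the changes of the 9 genes was not tested. In the livers of the TPM table Pdk4 and Angptl4 rose (background 6.07% higher and 1.86% lower of 11495 genes), and in the lungs Pdk4, Cpt1a, Acot1 and Angptl4 rose (background 16.1% higher and 20.8% lower of 13634 genes), with no gene of the 9 lower in either. The background of 698 genes higher in the TPM-table livers was 1 without control 91, 7 without control 92, 43 without A3B liver 23 and 1362 without control 11, and that of 2191 genes in lung ran from 1382 to 2127 leaving out 1 mouse. In lung 2 of 7 macrophage markers rose and 1 fell, 2 of 5 endothelial, 1 of 6 fibroblast and 1 of 5 alveolar type II and club cell markers fell, and adipocyte markers summed to 695 TPM in A3B lung 70 against 83.3 to 246 TPM in the others. The part of these markers in the lung values was not tested. The median log2 fold change of the 9 genes was 1.75 in pancreas, 1.72 in the TPM-table livers and 1.18 in lung, against 0.09, 0.39 and -0.06 over all genes tested. With the livers of both sets in 1 fit, Cyp4a10, Cyp4a14, Pdk4 and Angptl4 rose (background 30.6% higher and 8.42% lower of 10150 genes, median over all genes 0.38). Median centring moved that background from 3107 genes higher and 855 lower to 1409 and 1843. In the TPM-table livers it moved 698 higher and 214 lower to 270 and 458. The A3B effect differed between the 2 sets for none of the 9 genes (limma, unadjusted p of 0.124 or higher for the 9 genes, with 0 of the 9 under 0.05), as it did for 0.00% of all genes tested in either direction (234 of 10150 with an unadjusted p under 0.05).

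**Figure D1:**
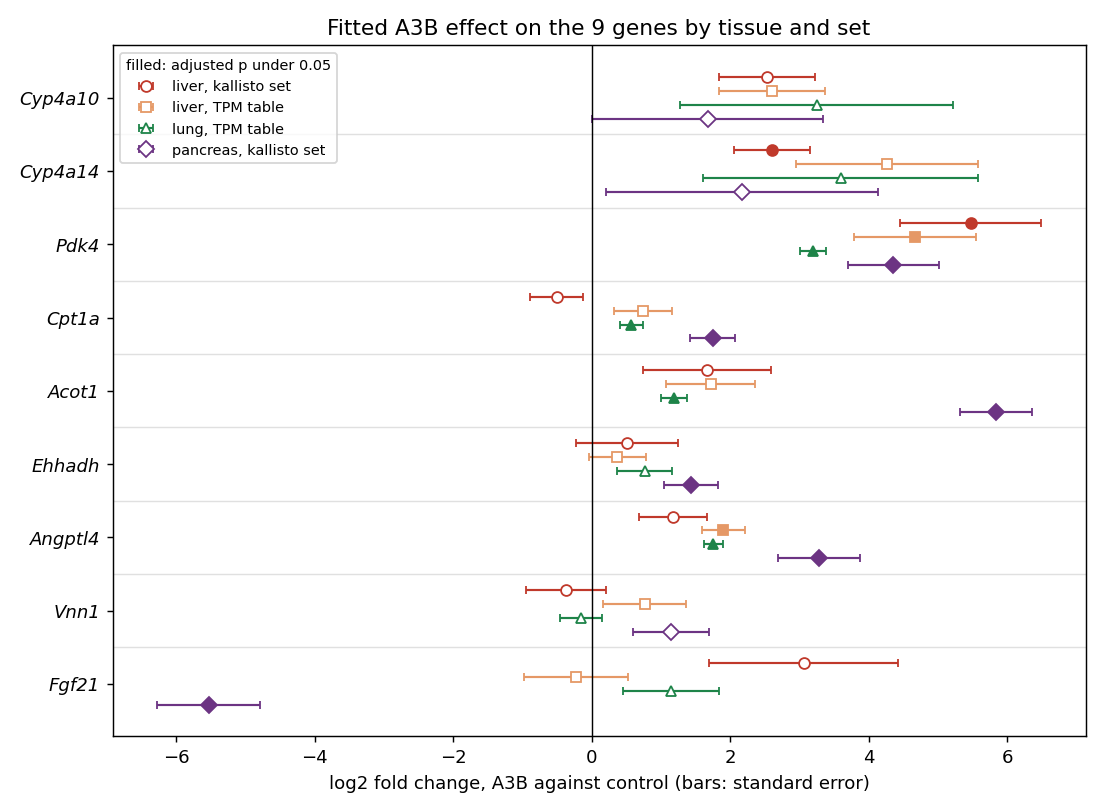
Fitted log2 fold change of A3B against control for each of the 9 genes, with bars of 1 standard error, in livers of the kallisto set (6 against 2), livers of the TPM table (3 against 3), lungs (3 against 3) and pancreases (6 against 2). Filled symbols have an adjusted p under 0.05. Pdk4 is filled in all 4 comparisons, and Fgf21 lies at -5.53 in pancreas and 3.06 in the kallisto livers.

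Pdk4 encodes pyruvate dehydrogenase kinase 4, which shuts the entry of pyruvate into the citric acid cycle and so spares glucose when fat is burned. In control livers 168 and 45 of the kallisto set it measured 0.707 and 2.26 TPM. In the 6 A3B livers the lowest value was 19.4 TPM, the median 98.8 TPM and the highest 167 TPM. Every A3B liver lay above both controls, as for 24.3% of all genes tested in these livers in TPM. The log2 fold change was 5.47 ± 1.02 (SE, edgeR, adjusted p = 0.0242), and an exact permutation test (two-sided, log2(TPM + 1)) gave p = 0.0357, the smallest that 6 against 2 samples allow. The call was lost without A3B liver 44 (5.32, adjusted p = 0.0524), control 45 (6.27, adjusted p = 0.137) or control 168 (4.84, adjusted p = 0.23), each in edgeR. In the TPM table the A3B livers 23, 28 and 70 measured 49.5, 180 and 55.1 TPM, and the controls 11, 91 and 92 measured 11.3, 0.722 and 0.484 TPM. The groups did not overlap, as for 28.5% of all genes tested in these livers with A3B higher, and control 11 stood well above the other controls. The difference in log2(TPM + 1) was 4.67 ± 0.88 (limma, adjusted p = 0.0327), and here the exact test cannot go below p = 0.1. It was 5.65 without control 11 (adjusted p = 0.0198) and 4.08 without A3B liver 28 (adjusted p = 0.0443), both in limma. That call was lost in limma without control 91 (4.23, adjusted p = 0.154), control 92 (4.12, adjusted p = 0.147) or A3B liver 23 (adjusted p = 0.0805). Over the 6 fits that leave out 1 liver the difference ran from 4.08 to 5.65. Over the 14 livers the exact permutation test with labels exchanged within each set gave p = 0.00179, the smallest possible, and the call in the fit over both sets (4.81 ± 0.61, limma, adjusted p = 9.1e-05) held without any 1 of the 14.

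The rise of Pdk4 was present in the other tissues as well. In lung it measured 48.3, 56.6 and 35.6 TPM in A3B mice 69, 70 and 74 and 3.51, 4.29 and 4.66 TPM in controls 87, 88 and 91, a difference of 3.20 ± 0.18 in log2(TPM + 1) (limma, adjusted p = 0.00141). Every A3B lung lay above every control for 23.4% of all genes tested in lung. In the pancreas the TMM-scaled level was 11.2 and 13.2 CPM in controls 168 and 45 and ran from 109 through a median of 229 to 447 CPM in A3B mice, without overlap, as for 25.1% of all genes tested in pancreas on this scale with A3B higher. Its log2 fold change was 4.35 ± 0.66 (edgeR, adjusted p = 0.00116). The difference of this change between pancreas and liver was -0.95 ± 0.95 (edgeR interaction, adjusted p = 0.537), and between lung and liver -1.47 ± 1.03 (limma, adjusted p = 0.35). Neither passed the threshold, no gene of the 9 was called in the lung-minus-liver fit (limma, 0 with an unadjusted p under 0.05, background 1.94% higher and 8.82% lower), and without control liver 11 the lung-minus-liver difference was -2.45 and did (limma, adjusted p = 0.027), when 2477 genes were lower, against 1187 with all mice.

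Angptl4 encodes a secreted inhibitor of lipoprotein lipase, the enzyme that lets tissues take up fatty acids from circulating triglyceride. In the kallisto livers the controls 168 and 45 measured 74.0 and 117 TPM and the A3B livers ran from 132 through a median of 266 to 447 TPM. The groups did not overlap in TPM, as for 24.3% of all genes tested, but they did on the TMM-scaled scale (no overlap for 15.0% of genes), where 5 of 6 A3B livers lay above both controls. The log2 fold change was 1.17 ± 0.49 (edgeR, adjusted p = 0.192). In the TPM table Angptl4 measured 86.1, 95.1 and 58.4 TPM in A3B livers 23, 28 and 70 and 17.8, 23.0 and 20.2 TPM in control livers 11, 91 and 92. All A3B livers lay above all controls, again as for 28.5% of all genes there, with a difference of 1.90 ± 0.31 in log2(TPM + 1) (limma, adjusted p = 0.0233). The call was lost without control 91 (1.99, adjusted p = 0.116), control 92 (1.90, adjusted p = 0.137) or A3B liver 23 (1.83, adjusted p = 0.0785) in limma. Over both sets the difference was 1.66 ± 0.28 (limma, adjusted p = 0.000496), the exact permutation test gave p = 0.00179, and the call held without any 1 of the 14 livers.

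In lung, Angptl4 was 34.8, 35.3 and 30.6 TPM in A3B mice 69, 70 and 74 and 7.50, 9.69 and 10.7 TPM in controls 87, 88 and 91. The difference was 1.76 ± 0.14 in log2(TPM + 1) (limma, adjusted p = 0.00174). In the pancreas the controls 45 and 168 measured 3.14 and 14.4 CPM and the A3B samples 57.8 to 122 CPM, with a median of 80.5 CPM. On the log2 scale this was a change of 3.28 ± 0.60 (edgeR, adjusted p = 0.00324), and it was 2.60 without control 45 and 4.80 without control 168, called in both. The excess over the liver change, 2.28 ± 0.74, did not pass the threshold (edgeR interaction, adjusted p = 0.0558). It did pass without A3B mouse 125 (2.60, adjusted p = 0.0345) or control 168 (4.06, adjusted p = 0.0367).

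Cyp4a10 and Cyp4a14 encode cytochrome P450 enzymes that hydroxylate the far end of fatty acids, and both are among the most responsive PPAR alpha targets of rodent liver. Cyp4a14 measured 221 and 245 TPM in control livers 168 and 45 and ran from 1214 through a median of 1498 to 3187 TPM in the 6 A3B livers. The log2 fold change was 2.61 ± 0.55 (edgeR, adjusted p = 0.0368), and the call was lost without A3B livers 44, 137 or 125 or either control, at 2.45, 2.68, 2.37, 2.46 (without 45) and 2.57 (without 168) and adjusted p of 0.0789, 0.0721, 0.0558, 0.329 and 0.324. Cyp4a10 measured 442 and 446 TPM in the controls and 1422 to 5788 TPM, with a median of 3141 TPM, in A3B livers. Its groups did not overlap either (exact permutation p = 0.0357, the smallest possible), but its log2 fold change of 2.53 ± 0.69 did not pass the threshold (edgeR, adjusted p = 0.0721), although it did without A3B liver 49 (2.63, adjusted p = 0.0243). Every A3B sample lay above every control for 24.3% of all genes tested in these livers in TPM and for 15.0% on the TMM-scaled scale.

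In the TPM table both genes varied widely within each group. Cyp4a14 measured 2242 and 2350 TPM in A3B livers 23 and 70 but 280 TPM in A3B liver 28, and 430 TPM in control liver 11 against 25.6 and 17.2 TPM in controls 91 and 92. Cyp4a10 measured 1723 and 1556 TPM in A3B livers 23 and 70, 257 TPM in A3B liver 28, 267 TPM in control 11 and 105 and 108 TPM in controls 91 and 92. A3B liver 28 thus lay below control 11 for both genes, while it had the highest Pdk4 and Angptl4 and the lowest transgene level of the 3 A3B livers. It also stood apart in skeletal muscle markers, which summed to 265 TPM against 1.70 to 3.30 TPM in the other 5 livers, and in adipocyte markers, at 218 TPM against 15.1 to 39.9 TPM. Their part in its Pdk4 and Angptl4 was not tested. Without this liver limma called both (4.08 and 1.76, adjusted p = 0.0443 and 0.0291), among 642 of 11163 genes called higher. Control 11 was the only male by Y-linked expression among the 6. The differences were 4.26 ± 1.31 for Cyp4a14 and 2.60 ± 0.77 for Cyp4a10 (limma, adjusted p = 0.0784 and 0.0722). Cyp4a14 passed without control 11 (5.69, adjusted p = 0.0304) and Cyp4a10 without A3B liver 28 (3.49, adjusted p = 0.0145). In the fit over both sets they were 3.59 ± 0.71 and 2.67 ± 0.48 (limma, adjusted p = 0.00143 and 0.000692), and the exact permutation test gave p = 0.00357 for each. The close copies of Cyp4a10 moved with it in that fit, by 2.80 for Cyp4a32 and 2.62 for Cyp4a31 (limma, both past the threshold).

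**Figure D2:**
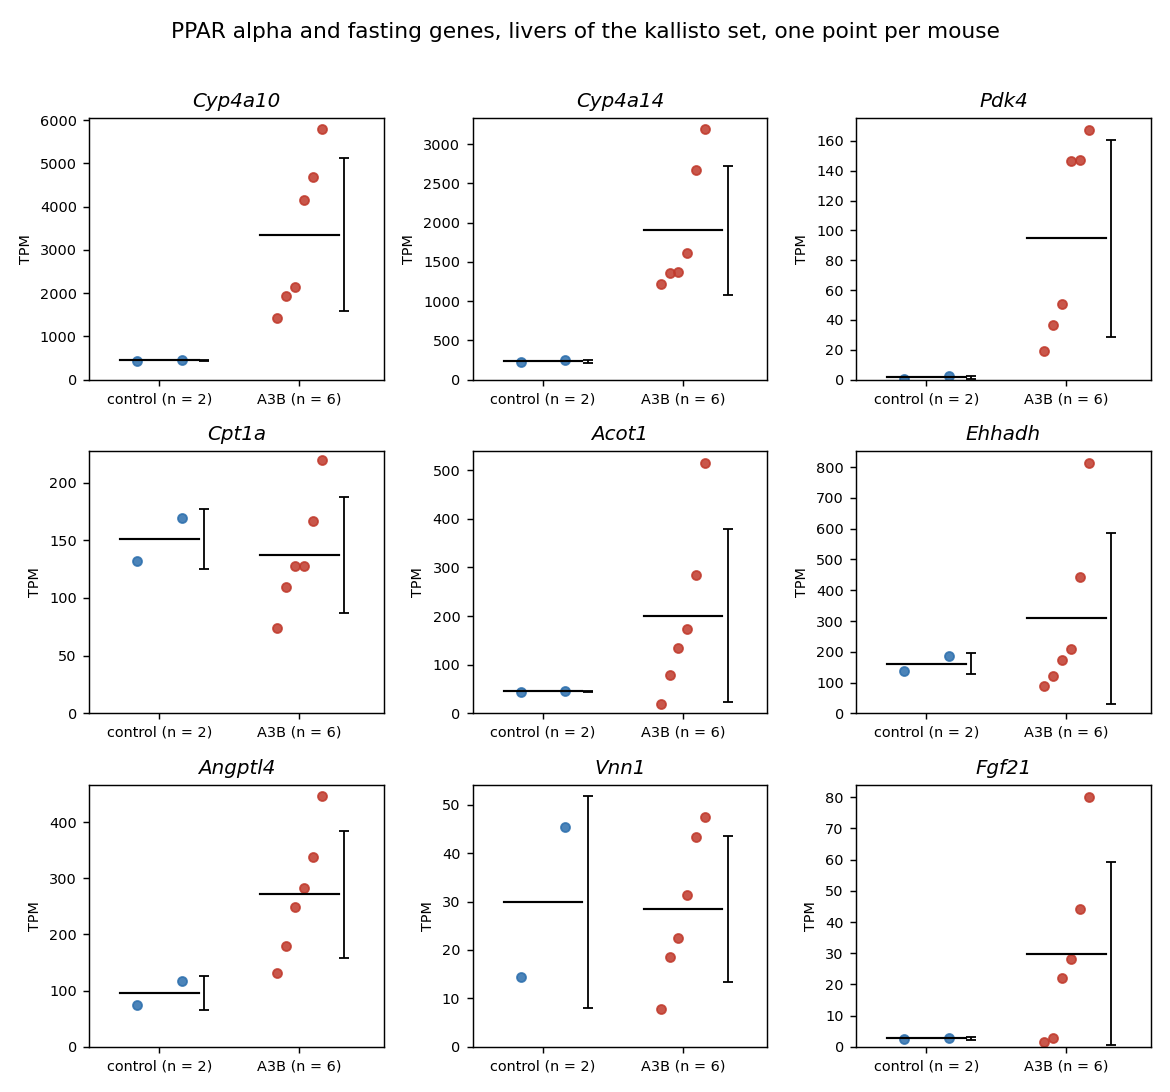
Levels of the 9 genes in livers of the kallisto set, in TPM on a linear axis, with 1 point per mouse, a line at the mean and a bar of 1 SD cut at 0, for 2 controls and 6 A3B mice. Pdk4, Cyp4a10, Cyp4a14 and Angptl4 do not overlap between the groups, as for 24.3% of all genes tested with A3B higher, and Cpt1a, Ehhadh, Vnn1, Acot1 and Fgf21 do.

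Outside the liver these P450 genes were lower, and the levels of hepatocyte markers are given beside them. In lung Cyp4a10 measured 95.9 and 93.6 TPM in A3B mice 70 and 74, 11.7 TPM in control 88, and 0.725, 0.354 and 0.0760 TPM in A3B 69, control 91 and control 87. Cyp4a14 followed the same order, with 120, 97.3 and 10.5 TPM in the first 3 and at most 0.941 TPM in the others. Control 88, with 1030 TPM the highest in hepatocyte markers, was thus well below A3B lungs 70 and 74 in both genes. In A3B mouse 70, whose liver is in the same table, hepatocyte markers in the lung stood at 6.87% of their liver level, and that share of its liver Cyp4a10 and Cyp4a14 would be 107 and 161 TPM, against 95.9 and 120 TPM measured. For Pdk4, Angptl4, Acot1 and Cpt1a the same share would be 3.79, 4.01, 0.740 and 4.65 TPM, against 56.6, 35.3, 17.9 and 37.2 TPM measured. For Ehhadh, Vnn1 and Fgf21 it would be 6.38, 2.52 and 4.75 TPM, against 12.2, 5.94 and 6.37 TPM measured. In control mouse 91 the share was 0.603%, which would give 0.631 TPM of Cyp4a10 in lung, against 0.354 TPM measured. In A3B pancreases 44, 49, 137, 125 and 153 it would give 59.2, 35.1, 22.2, 8.07 and 4.09 TPM of Cyp4a10, against 5.73, 26.7, 16.4, 1.73 and 0.605 TPM measured. For lung, a fit with a hepatocyte marker covariate was run after seeing the data, and it is described at the end. Neither Cyp4a10 nor Cyp4a14 passed in any alternative lung fit, that one included (limma, adjusted p of 0.0501 or higher). The part of hepatocyte RNA in these values was not otherwise tested. The differences of 3.25 ± 1.98 for Cyp4a10 and 3.59 ± 1.99 for Cyp4a14 did not pass the threshold in lung (limma, adjusted p = 0.248 and 0.21).

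**Figure D3:**
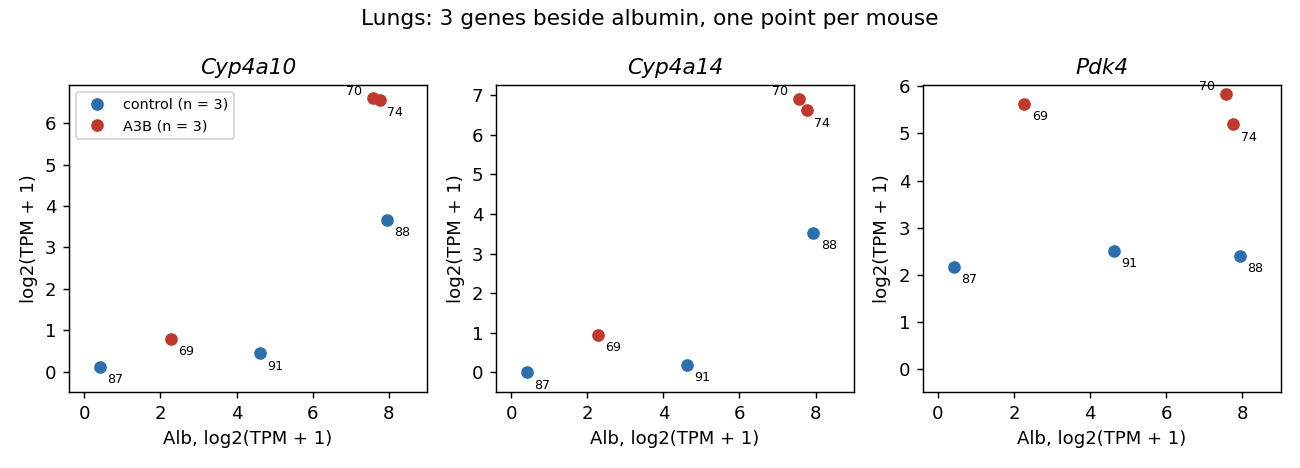
Cyp4a10, Cyp4a14 and Pdk4 against the hepatocyte marker Alb in the 6 lungs, both axes in log2(TPM + 1), with the mouse number beside each point. The Cyp4a genes are highest in A3B lungs 70 and 74, with Alb at 190 and 216 TPM. They are lower in control lung 88, which has the most Alb (245 TPM). Pdk4 separates the 3 A3B lungs from the 3 controls, as 23.4% of all genes tested in lung separate them.

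In the pancreas Cyp4a14 had an estimated count of 0 in control 168 and 52 in control 45, and 77 to 2779 in A3B samples. In TMM-scaled units Cyp4a10 ran from 0.776 to 26.0 CPM in A3B pancreases and was 0.258 and 6.32 CPM in controls 168 and 45. The groups overlapped, and the log2 fold changes of 1.68 ± 1.67 for Cyp4a10 and 2.17 ± 1.96 for Cyp4a14 did not pass the threshold (edgeR, adjusted p = 0.475 and 0.43). The highest values of both were in A3B pancreases 49 and 137, whose summed hepatocyte markers were 1151 and 471 TPM. A3B pancreas 44 had the highest hepatocyte markers, 1267 TPM, and lower values of both, at 7.63 and 2.59 CPM.

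Acot1 encodes a cytosolic thioesterase that frees fatty acids from coenzyme A. It gave the largest rise of the 9 in the pancreas. Controls 45 and 168 measured 1.72 and 1.87 CPM, with estimated counts of at least 30.8, and A3B pancreases ran from 55.9 through a median of 111 to 156 CPM. Fitted in log2, the change was 5.84 ± 0.52 (edgeR, adjusted p = 0.000136). Among livers of the kallisto set Acot1 measured 44.5 and 45.7 TPM in controls 168 and 45 and from 18.8 through 154 to 514 TPM in A3B livers. In TPM 5 of 6 A3B livers lay above both controls and A3B liver 153 lay below them, and the log2 fold change of 1.67 ± 0.92 did not pass the threshold (edgeR, adjusted p = 0.31). The change in pancreas exceeded that in liver by 4.35 ± 1.08 (edgeR interaction, adjusted p = 0.0196), a call that 6.87% of 19927 genes had in this direction (1368 genes, 49 without control 45 and 344 without control 168). The call was lost without control 45 (4.39, adjusted p = 0.195) or control 168 (4.35, adjusted p = 0.135), and the difference was 4.95 without A3B mouse 49.

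In the TPM-table livers Acot1 measured 63.2, 14.3 and 10.8 TPM in A3B mice 23, 28 and 70 and 8.85, 5.16 and 4.37 TPM in controls 11, 91 and 92. The groups did not overlap, as for 28.5% of all genes there, but the difference of 1.72 ± 0.64 did not pass (limma, adjusted p = 0.117). Over both liver sets it was 1.62 ± 0.63 (limma, adjusted p = 0.0525), the exact permutation test gave p = 0.0446, and the fit passed without A3B liver 153 (1.89, adjusted p = 0.00631) or A3B liver 70 (1.82, adjusted p = 0.0443). In lung it was 19.6, 17.9 and 19.7 TPM in A3B mice and 5.55, 9.68 and 8.83 TPM in controls 87, 88 and 91, a difference of 1.18 ± 0.19 (limma, adjusted p = 0.00634). Acot2, its mitochondrial neighbour that shares reads with it, rose in pancreas by 3.69 ± 0.38 (edgeR, adjusted p = 0.000201) and changed by 3.74 ± 1.08 in the kallisto livers, which did not pass (adjusted p = 0.0848).

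Cpt1a encodes the carnitine palmitoyltransferase of the outer mitochondrial membrane, the gate for long-chain fatty acids, and Ehhadh the peroxisomal bifunctional enzyme of beta-oxidation. In the pancreas Cpt1a was 44.3 and 40.7 CPM in controls 168 and 45 and 109 to 210 CPM in A3B samples, with a median of 124 CPM. The log2 fold change was 1.75 ± 0.33 (edgeR, adjusted p = 0.0031). In the kallisto livers the controls measured 132 and 169 TPM and the A3B livers 73.7 to 220 TPM, with a median of 127 TPM and a log2 fold change of -0.51 ± 0.39 (edgeR, adjusted p = 0.459). The pancreas change exceeded the liver change by 2.42 ± 0.53 (edgeR interaction, adjusted p = 0.0105), a call lost without control 45 (2.31, adjusted p = 0.158) or control 168 (2.56, adjusted p = 0.0788). In the TPM-table livers Cpt1a measured 103, 52.6 and 67.7 TPM in A3B mice 23, 28 and 70 and 68.4, 36.4 and 30.4 TPM in controls 11, 91 and 92, which did not pass (0.74 ± 0.42, limma, adjusted p = 0.251). In lung it was 35.8, 37.2 and 38.7 TPM in A3B mice and 20.8, 32.3 and 22.3 TPM in controls 87, 88 and 91. That is the smallest called rise of the 9, at 0.57 ± 0.17 (limma, adjusted p = 0.0363), and of the 6 fits that leave out 1 mouse it held the call in the one without control lung 88. Without control 87, control 91, A3B 69, A3B 70 or A3B 74 the difference was 0.45, 0.50, 0.60, 0.57 and 0.54, with adjusted p of 0.0923, 0.11, 0.0791, 0.0886 and 0.0912 (limma).

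Ehhadh in the pancreas measured 17.3 and 30.7 CPM in controls 168 and 45 and ran from 40.6 through 68.0 to 94.4 CPM in A3B mice. Its log2 fold change was 1.43 ± 0.39 (edgeR, adjusted p = 0.0174), but 1.09 without control 168 (adjusted p = 0.114) and, chosen after seeing the data, 1.17 without A3B pancreases 44 and 49 (adjusted p = 0.0504). Among livers of the kallisto set the A3B values spread from 89.2 to 813 TPM, around controls of 137 and 186 TPM, and the log2 fold change was 0.51 ± 0.74 (edgeR, adjusted p = 0.716). The A3B livers of the TPM table measured 92.2, 92.4 and 92.9 TPM, within the range of 49.1 to 131 TPM of their controls. In lung the values were 4.54, 12.2 and 7.45 TPM in A3B mice 69, 70 and 74 and 3.59, 6.70 and 2.60 TPM in controls 87, 88 and 91 (0.76 ± 0.40, limma, adjusted p = 0.18).

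**Figure D4:**
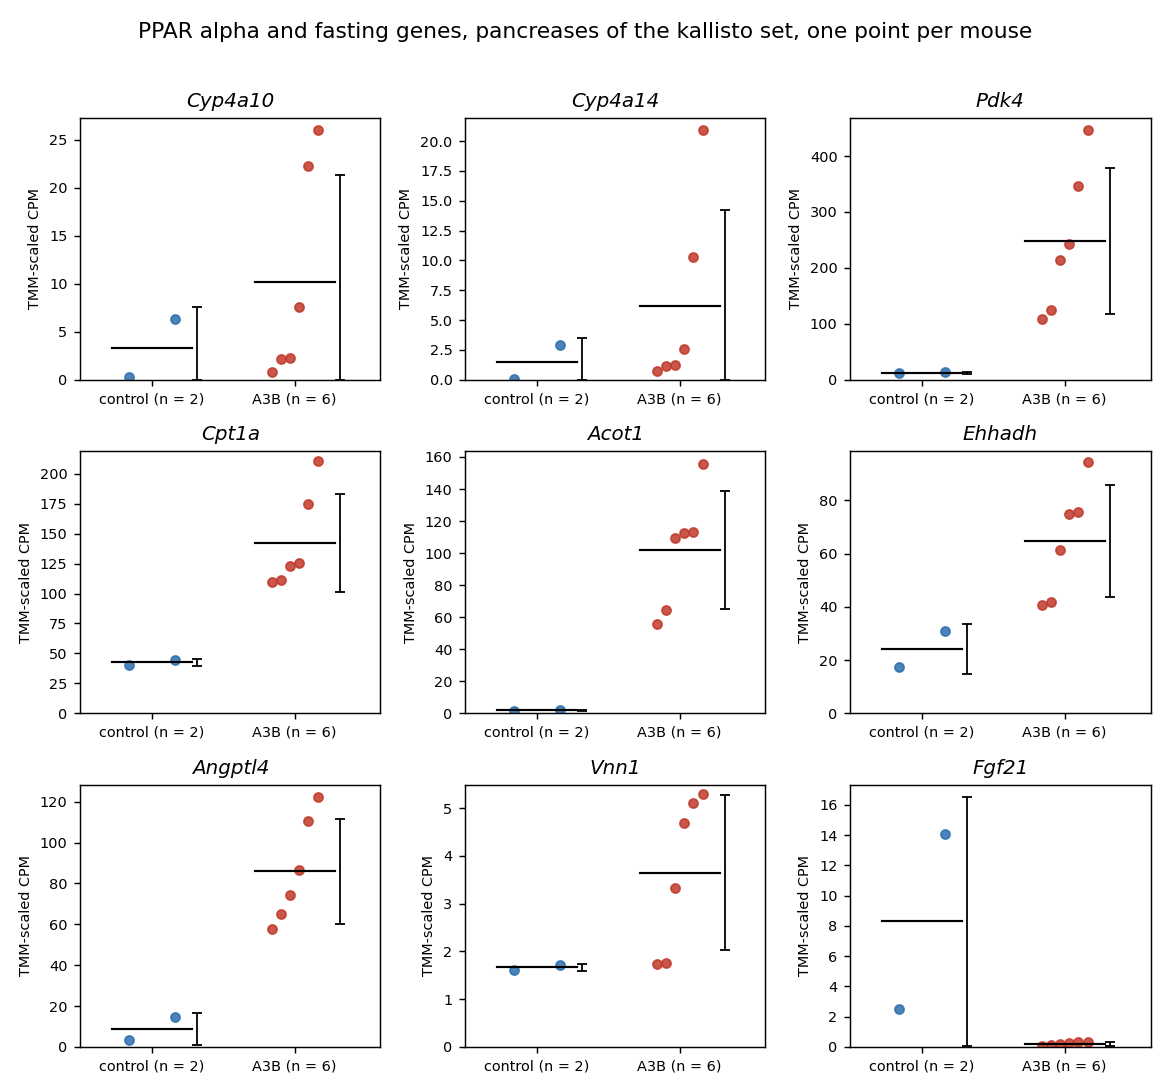
Levels of the 9 genes in pancreases of the kallisto set, in TMM-scaled CPM on a linear axis, with 1 point per mouse, a line at the mean and a bar of 1 SD cut at 0, for 2 controls and 6 A3B mice. Pdk4, Cpt1a, Acot1, Ehhadh and Angptl4 lie above both controls in all 6 A3B pancreases, as does Vnn1 by a narrow margin, while Fgf21 lies below both, against 25.1% of all genes above and 18.9% below on this scale.

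Vnn1 encodes a membrane pantetheinase that returns the coenzyme A precursor pantothenate and is a sensitive marker of PPAR alpha activity in liver. It passed the threshold in no tissue. In the kallisto livers the controls themselves spread from 14.5 TPM in mouse 168 to 45.5 TPM in mouse 45, and A3B livers from 7.88 to 47.4 TPM (-0.38 ± 0.58, edgeR, adjusted p = 0.733). In the TPM table the A3B livers measured 20.8, 31.2 and 36.7 TPM and the controls 19.6, 36.2 and 6.08 TPM. The lungs measured 2.36, 5.94 and 5.62 TPM in A3B mice 69, 70 and 74 and 4.51, 4.21 and 6.44 TPM in controls 87, 88 and 91, and overlapped as well (-0.16 ± 0.30, limma, adjusted p = 0.715). In the pancreas all 6 A3B samples, at 1.73 to 5.30 CPM, lay above the controls at 1.61 and 1.72 CPM, and the log2 fold change was 1.15 ± 0.55 (edgeR, adjusted p = 0.133). Every A3B sample lay above every control for 25.1% of all genes tested in pancreas on this scale.

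Fgf21 encodes a hormone that the liver releases in fasting and under stress, and that the acinar cells of the pancreas also make. In the pancreas it fell: controls 45 and 168 measured 14.1 and 2.49 CPM, from estimated counts of 257 and 104, and the 6 A3B pancreases 0.0541 to 0.329 CPM, from 4 to 33 counts. The log2 fold change was -5.53 ± 0.75 (edgeR, adjusted p = 0.000661), and it was -3.78 without control 45 and -6.29 without control 168, called in both. In TPM, a scale on which most genes are higher in A3B pancreases, it was also below both controls in every A3B sample, at 0.0659 to 0.563 TPM against 1.54 and 3.81 TPM, as were 1.07% of all genes on that scale and 18.9% on the TMM-scaled one. Of 10 acinar markers tested, 9 fell in the same comparison, and their part in the fall of Fgf21 was not tested.

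Among livers of the kallisto set Fgf21 went the other way in most animals. Controls 45 and 168 measured 2.40 and 2.97 TPM, A3B livers 137, 48, 44 and 49 measured 22.1, 28.2, 44.2 and 80.0 TPM, and A3B livers 125 and 153 measured 1.64 and 2.84 TPM, below the higher control. The log2 fold change of 3.06 ± 1.36 did not pass the threshold (edgeR, adjusted p = 0.217). The difference between pancreas and liver was -8.40 ± 1.82 (edgeR interaction, adjusted p = 0.0108), a call that 5.02% of all genes had in this direction (1001 genes, 34 without control 45 and 177 without control 168). It was lost without control 45 (-6.43, adjusted p = 0.206) or control 168 (-9.47, adjusted p = 0.0707). In the livers of the TPM table the controls 11, 91 and 92 were as high as A3B livers, at 42.1, 44.3 and 15.7 TPM against 30.4, 8.28 and 69.2 TPM in A3B mice 23, 28 and 70 (-0.23 ± 0.75, limma, adjusted p = 0.852). In lung it was 6.37 TPM in A3B mouse 70, 1.40 TPM in A3B 74, 1.29 TPM in control 88, 0.403 TPM in A3B 69, and listed at 0 in controls 87 and 91. The 3 highest lungs were those with the highest hepatocyte markers (749, 842 and 1030 TPM in 70, 74 and 88). No alternative lung fit of Fgf21 passed, a hepatocyte marker covariate among them (limma, adjusted p of 0.128 or higher). The part of these markers in Fgf21 was not otherwise tested.

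The 6 A3B livers of the kallisto set did not move alike. Over these 6, the log2 CPM of Acot1 and Ehhadh correlated at r = 0.934, Pdk4 with Acot1 at 0.913, and Angptl4 with Cyp4a10 at 0.833, while Fgf21 and Angptl4 correlated at -0.841. These are descriptions over 6 samples that share a pipeline and differ in RNA make-up. In TPM, livers 44 and 49 led in Acot1, Ehhadh and Fgf21, liver 125 in Cyp4a10, Angptl4 and Cpt1a, and liver 153 was lowest in Pdk4, Acot1, Ehhadh and Vnn1. By Y-linked genes, 125, 137, 153 and control 168 were males and 44, 48, 49 and control 45 females. Livers 48 and 49 also had the largest shares of mitochondrial counts, 21.6% and 10.2%, against 3.02% to 4.80% in the others. Without livers 48 and 49 edgeR called 4 of the 9 genes higher (Cyp4a10, Cyp4a14, Pdk4 and Angptl4), and over all 16798 genes tested 1467 were then higher and 1620 lower, against 218 and 418 with all livers. The gain in calls was thus common to many genes. With sex as a covariate and all livers kept, edgeR called 183 of 17376 genes higher and 390 lower. The part of sex and RNA quality in the order of the livers was not tested.

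**Figure D5:**
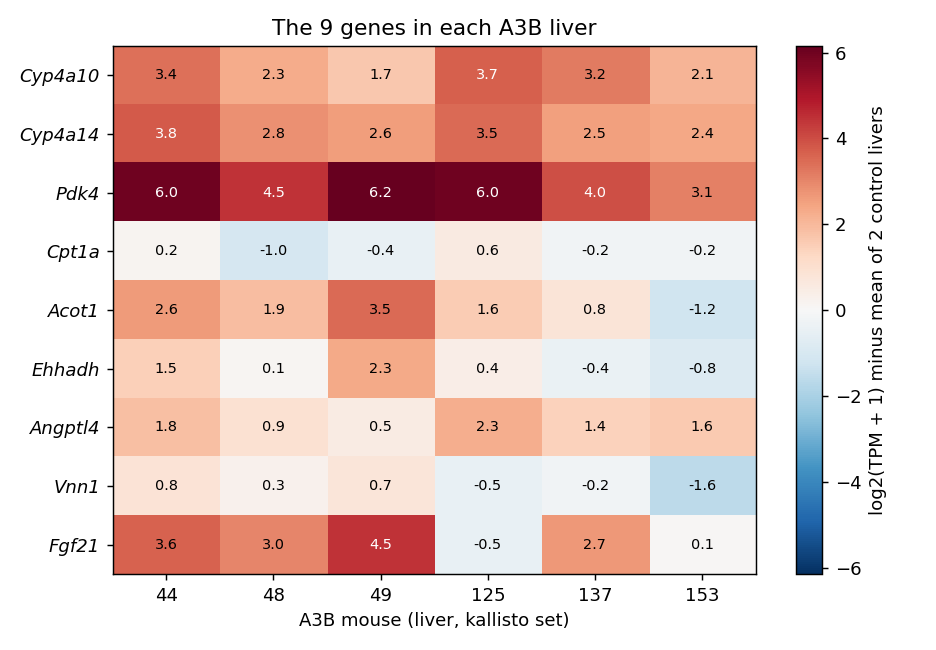
Difference in log2(TPM + 1) of each of the 6 A3B livers of the kallisto set from the mean of the 2 control livers, for the 9 genes, with the value in each cell. Pdk4, Cyp4a10, Cyp4a14 and Angptl4 are above 0 in every mouse, whereas Fgf21 ranges from -0.476 in mouse 125 to 4.46 in mouse 49.

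Over the 8 kallisto livers, the genes outside the 9 whose log2 CPM was most like the mean standardised level of the 9 were Chil1 (r = 0.953), Ccdc14 (0.947), Slc22a21 (0.947), Ddhd1 (0.944) and 4930455H04Rik (0.942). They are the 5 highest of all genes that passed the filter and are given as a description. Slc22a21 is a carnitine transporter.

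Which transcripts carried the signal differed between genes. Ehhadh and Fgf21 have 1 transcript in the files, and Pdk4, Cpt1a and Cyp4a14 came mostly from 1 full-length coding transcript, with on average 89.9%, 96.8% and 96.9% of TPM in A3B livers. For Angptl4 the full-length coding transcript held 13.9% of the TPM in A3B livers and 13.3% in controls, and a transcript annotated as subject to nonsense-mediated decay held 77.6% and 77.5%. For Acot1 the full-length coding transcript held 20.0% in A3B and 21.1% in control livers, the processed transcript Acot1-204 held 49.5% and 58.4%, and the short coding model Acot1-202 held 29.4% and 19.8%. Gene-level TPM of Acot1 and Angptl4 thus rests largely on transcripts other than the full-length coding one. For Cyp4a10 a second coding transcript took from 1.66% to 69.6% of the gene in A3B livers and at most 1.25% in controls.

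Among the omega-oxidation and thioesterase relatives of the 9 genes, 0 of 15 tested rose and 2 fell in the kallisto livers: Cyp4f14 (-4.13 ± 0.79, adjusted p = 0.0268) and Cyp4v3 (-1.88 ± 0.40, adjusted p = 0.0368), both P450s of other subfamilies. In the TPM-table livers 2 of 15 rose and 0 fell (limma, background 6.07% higher). Over both sets of livers 4 of 15 rose and 2 fell (limma, background 30.6% higher and 8.42% lower). In the pancreas 2 rose and 2 fell, among them Acot2 and Acot12, a cytosolic acetyl-CoA thioesterase (5.61 ± 1.25, adjusted p = 0.00718, with at most 0.0188 TPM in a control), and Cyp4f14 (-2.54 ± 0.72, adjusted p = 0.0235). Adjusted p-values for these further gene lists are from edgeR over all genes unless limma is named. All counts in these lists are to be read beside the shares of all genes called higher and lower. They were 1.25% and 2.41% in the kallisto livers, and 17.0% and 14.9% in pancreas. In the TPM-table livers they were 6.07% and 1.86%, in lung 16.1% and 20.8%, and over both sets 30.6% and 8.42%.

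Peroxisomal beta-oxidation genes other than Ehhadh were lower in the kallisto livers and higher in pancreas where they were called. In the interaction fit 6 of 18 differed between the tissues in that direction and 1 in the other. The background there was 6.87% higher and 5.02% lower of all genes, and each tissue has only 2 controls. In the kallisto livers 4 of 18 fell and 0 rose, with a median log2 fold change of -0.58. Scp2, the sterol carrier and thiolase, went from 3361 TPM in controls to 677 ± 99.1 TPM (SD, n = 6) in A3B (-2.77 ± 0.38, adjusted p = 0.00792). The transporter Abcd3 fell by 1.27 on the log2 scale (adjusted p = 0.0399). In the pancreas 6 of 18 rose and 0 fell, against a background of 17.0% higher and 14.9% lower. Those that rose included Acox2, which acts on branched chains and bile acid intermediates (6.20 ± 0.89, adjusted p = 0.00129), and Eci2 (0.97 ± 0.25, adjusted p = 0.0154). Over both sets of livers 3 of these 18 rose and 8 fell, in the TPM-table livers 1 fell, and in lung 4 rose and 1 fell (limma).

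Of 18 mitochondrial beta-oxidation and carnitine genes tested, 1 rose and 1 fell in the kallisto livers. Cpt1b, the muscle form of the carnitine palmitoyltransferase, rose from 1.20 to 12.2 ± 6.59 TPM (3.15 ± 0.53, adjusted p = 0.0161). Skeletal muscle markers summed to 71.2 and 34.6 TPM in A3B livers 48 and 125, 1.03 to 4.46 TPM in the other A3B livers and at most 2.08 TPM in controls, with a median log2 fold change of 8.13 over the 5 of 6 tested and 0 called, and their part in Cpt1b was not tested. Of the mitochondrial genes, the thiolase Acaa2 fell by 1.58 on the log2 scale (adjusted p = 0.035). The carnitine transporter Slc22a5 changed by 0.92 ± 0.28 (adjusted p = 0.0965) there and rose over both sets by 1.62 (limma), where 2 of 17 rose and 2 fell, with 1 rising in the TPM-table livers and 1 in lung. In the pancreas 6 rose and 2 fell, with Acadl, a long-chain acyl-CoA dehydrogenase (2.18 ± 0.32, adjusted p = 0.000892), and Cpt1b (2.20 ± 0.35, adjusted p = 0.00131) higher. The electron carrier Etfa fell by 1.10 on the log2 scale there but was higher by 1.11 with library totals in place of TMM and by 1.22 in log2(TPM + 1).

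None of 7 ketone body genes passed in the kallisto livers (edgeR, 4 with an unadjusted p under 0.05), and in the pancreas 1 rose and 2 fell. Of these, 1 rose and 1 fell in the TPM-table livers, over both sets of livers 2 rose and 2 fell, and in lung 1 fell (limma). Acat1 and Oxct1, which also serve the breakdown of ketone bodies, fell in pancreas by 1.93 and 2.03 on the log2 scale but were higher by 0.40 and 0.19 with library totals.

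Of 21 genes for fatty acid uptake and lipid droplets, 3 rose and 3 fell in the kallisto livers. Plin4, a lipid droplet coat protein, measured 0.274 and 0.951 TPM in controls and 6.33 to 64.6 TPM in A3B livers (4.93 ± 0.91, adjusted p = 0.0238). Hilpda, an inhibitor of droplet lipolysis, measured 2.02 and 2.14 TPM in controls and 11.0 to 107 TPM in A3B livers (4.31 ± 0.92, adjusted p = 0.0372). Fitm1, which helps droplets form, fell by 2.96 on the log2 scale (adjusted p = 0.0247). In the pancreas 6 of the 21 rose and 1 fell, with the droplet coat protein Plin2 higher (3.70 ± 0.61, adjusted p = 0.00164). Of 19 tested by limma 4 rose and 3 fell in the TPM-table livers, 3 rose and 2 fell in lung and 9 rose and 6 fell over both sets of livers, and the fatty acid transporter Cd36 rose by 3.09 (limma, adjusted p = 0.000243).

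Of 18 receptors, partners and coregulators of the PPARs, 1 rose in the kallisto livers. Ppargc1a, a coactivator of fasting genes, measured 1.49 and 4.24 TPM in controls and 7.49 to 50.9 TPM in A3B livers (2.85 ± 0.61, adjusted p = 0.0373). Ppara itself measured 75.4 and 117 TPM in controls and 24.8 to 105.5 TPM in A3B livers, and its change of -1.05 ± 0.43 did not pass (adjusted p = 0.187). In the pancreas 5 of 18 rose, among them Creb3l3, a membrane-bound factor that works with PPAR alpha in fasted liver (4.55 ± 0.33, adjusted p = 6.61e-05), and Rxra, the partner in the PPAR heterodimer (1.57 ± 0.34, adjusted p = 0.00666). In lung 10 of 15 rose and 0 fell (limma, background 16.1% higher). Of 18 tested, 1 rose in the TPM-table livers (background 6.07%) and 6 over both sets of livers (background 30.6%), both in limma.

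Around the secreted members, 2 of 9 genes of lipoprotein lipase regulation fell in the kallisto livers: Lipc, hepatic lipase (-3.44 ± 0.58, adjusted p = 0.0169), and Lmf1, a lipase maturation factor (-1.42 ± 0.23, adjusted p = 0.0148). Lpl itself changed by 2.20 ± 0.72 there (adjusted p = 0.114) and rose in lung by 1.16 (limma, adjusted p = 0.00908), where 1 of 6 rose and 1 fell. In the pancreas 1 of 9 fell, and 2 of 6 fell both in the TPM-table livers and over both sets (limma). Of 5 FGF21 receptor genes, none passed in either set of livers (edgeR and limma, 2 with an unadjusted p under 0.05 in each), while 1 rose and 1 fell over both sets and 3 of 4 rose and 1 fell in lung (limma). In the pancreas Fgfr1 rose by 1.11 ± 0.27 (adjusted p = 0.0113), and Klb, the co-receptor that binds FGF21, fell (adjusted p = 0.0162) but was higher by 0.24 with library totals. Of 12 genes around pyruvate dehydrogenase, none passed in the kallisto livers (edgeR, 5 with an unadjusted p under 0.05), and in pancreas 5 fell on the TMM scale, among them Pdk1 and the mitochondrial pyruvate carriers Mpc1 and Mpc2 (-1.61, -1.50 and -1.78), which were all higher with library totals (0.66, 0.75 and 0.56). In the TPM-table livers none of 11 passed (2 with an unadjusted p under 0.05), over both sets 1 rose and in lung 1 fell (limma).

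Genes of lipid synthesis, which are high in the fed state, gave the most calls of any list in the kallisto livers: 7 of 13 fell and 0 rose, against a background of 2.41% lower over all genes. Scd1, the stearoyl-CoA desaturase, measured 1155 and 3160 TPM in controls and 1.21 to 26.6 TPM in A3B livers (-7.92 ± 1.04, adjusted p = 0.00713). Srebf1, the lipogenic transcription factor, measured 69.4 and 225 TPM in controls and 8.71 to 26.8 TPM in A3B livers (-3.65 ± 0.38, adjusted p = 0.00389). Elovl6, a fatty acid elongase, fell by 3.51 on the log2 scale (adjusted p = 0.0131). In the TPM-table livers 3 of 13 fell, Scd1 among them (-5.33, limma, adjusted p = 0.0162), and in lung none did (limma, 1 with an unadjusted p under 0.05). Over both sets of livers 8 fell and 0 rose (limma), and in pancreas 3 fell and 1 rose.

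Of 19 other genes of the hepatic fasting response, 0 rose and 1 fell in the kallisto livers, the gluconeogenic Fbp1 (-1.77 ± 0.42, adjusted p = 0.0487). Igfbp1, an insulin-repressed binding protein, measured 21.1 and 35.6 TPM in controls and 187 to 3256 TPM in A3B livers but just missed the threshold (4.94 ± 1.25, adjusted p = 0.0589), and it rose over both sets (4.27, limma, adjusted p = 0.000104), where 8 of 18 rose and 1 fell. Of this list 4 of 19 rose in pancreas (background 17.0% of all genes) and 1 of 18 in the TPM-table livers (6.07%). In lung 7 of 17 rose (16.1%), and none fell in any of them. Of 8 glucocorticoid-responsive genes, 3 rose in the kallisto livers, 2 in pancreas, 4 in the TPM-table livers, 7 in lung and 7 over both sets of livers, and none fell. Cdkn1a, which p53 also induces, rose in all 4 comparisons, by 4.61 ± 0.73 in the kallisto livers (adjusted p = 0.0141) and 2.14 ± 0.52 in pancreas (adjusted p = 0.011), and Zbtb16 rose by 3.18 ± 0.60 in the kallisto livers (adjusted p = 0.0247). Of 11 genes of the integrated stress response, which also drives Fgf21, 0 passed in the kallisto livers (edgeR, 3 with an unadjusted p under 0.05, Sesn2 at 1.49 ± 0.45, adjusted p = 0.0921), and in pancreas 5 rose, with Sesn2 (adjusted p = 0.000325) and Gdf15 (3.14 ± 0.55, adjusted p = 0.00221) among them, while 4 fell on the TMM scale, among them Psat1 (-1.85 ± 0.27, adjusted p = 0.000862), which was higher by 0.45 with library totals and by 0.29 in log2(TPM + 1). Of the same 11 genes 6 rose over both sets of livers (background 30.6%), 4 in lung (16.1%) and 1 in the TPM-table livers (6.07%). None fell there (limma).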

How the data were processed

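RNA-seq of 28 mouse tissue samples was analysed. For 16 samples the authors deposited estimated counts and TPM per transcript, made with kallisto against mouse transcripts (mm10, per the submitters' processing notes, which also name GRCm38). For 12 samples the authors deposited TPM per gene, from a matrix of reads counted with GenomicAlignments on deduplicated alignments as its headers name them, so depth there is unknown. Transcripts were summed to gene symbols with GENCODE M21, and 97.8% of 119414 transcripts matched. Between 0.225% and 1.46% of counts had no gene and were left out. Spreadsheet date names (26 rows of the TPM table) were dropped.

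Estimated counts were rounded and tested with edgeR 4.0.16 in R 4.3.3 (robust quasi-likelihood, TMM, filterByExpr), with SE taken as the log2 fold change over the root of F. TPM was tested as log2(TPM + 1) with limma 3.58.1 (trend, robust) over genes averaging 1 TPM or more, and a fold change on this scale understates the change of low genes. Livers of both sets were fitted with set as a covariate. P-values were adjusted by Benjamini-Hochberg over all genes tested, and 0.05 was the threshold. Single levels were compared by two-sided exact permutation tests of log2(value + 1). Scripts were tested on simulated data.

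Liver and pancreas of 7 mice, and liver and lung of 2, came from the same animal by their numbers in the titles. Deviations from the group means correlated between tissues at 0.391, 0.334, 0.275 and 0.109 for mice 137, 125, 44 and 153, at -0.023 for mouse 49 and at 0.0235 for the 2 controls. A fit with the mouse as a block was an alternative. DESeq2 1.42.0, library totals, other filters, pseudocounts and covariates and leaving out each mouse were others. Genes named from each further list were the 3 of lowest p in the kallisto liver and pancreas fits, with further genes named after their values were seen. The 9 genes and the lists were chosen with earlier results of these data known. No columns of the authors' own comparisons were used. Values of some single genes of the further lists are not reported here.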

Additional observations from a re-analysis of the deposited data

Results flagged for a closer look

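The A3B effect differed between pancreas and liver of the kallisto set for 3 of the 9 genes in the edgeR interaction fit, against 6.87% higher and 5.02% lower of all 19927 genes tested. Cpt1a differed by 2.42, Acot1 by 4.35 and Fgf21 by -8.40 (pancreas minus liver, log2 scale, adjusted p = 0.0105, 0.0196 and 0.0108). Each of these calls was lost when control 45 or control 168 was left out, and no difference changed sign. Over all genes the 1368 higher and 1001 lower became 49 and 34 without control 45 and 344 and 177 without control 168. Fgf21 rests on 4 to 33 estimated counts in each A3B pancreas and on livers that spread from 1.64 to 80.0 TPM. No sample of the 9 genes stood apart by Dixon's test in the 18 groups of 6 A3B samples (9 genes in 2 tissues).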

How the results depend on the processing

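Of the alternatives run for the 9 genes, 717 kept their direction and their side of the threshold, 31 lost a call, 21 gained one and 30 changed sign, all of the latter in comparisons that were not called. In the kallisto livers the count of genes higher was 2, and 4 with DESeq2 and, chosen after seeing the data, 4 without A3B livers 48 and 49, while leaving out 1 mouse gave 0 to 3. Over all genes 218 were higher there, 1290 with DESeq2, 1467 without livers 48 and 49 and 3 to 653 leaving out 1 mouse. In the TPM-table livers it was 2, then 0 with no filter, 1 with median centring and 0 to 3 leaving out 1 mouse. The count lower in pancreas was 1, and 0 in limma on TPM, where Fgf21 was under the filter. For pancreas minus liver, 2 were higher, 5 with library totals and 0 to 3 leaving out 1 mouse, and 1 was lower, 0 to 1 leaving out 1 mouse. For lung minus liver 0 were lower, and 0 to 1 leaving out 1 mouse. With the mouse as a replicate block the paired fit of pancreas minus liver gave 2 higher and 1 lower, with Cpt1a at 2.37, Acot1 at 4.86 and Fgf21 at -7.21, and changed no call of the 9 genes. Only Cyp4a14 changed sign there, to 0.59.

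Changes of sign were these, and their cause was not tested. In the kallisto livers Ehhadh (0.51) was -0.15 without livers 48 and 49 and -0.12 to 0.70 leaving out 1 mouse. Vnn1 (-0.38) was 0.12 and Fgfr3 (-0.39) 0.042 with library totals, and Vnn1 was -0.98 to 0.34 leaving out 1 mouse. In pancreas, library totals turned Acat1 to 0.40, Angptl8 to 1.05, Etfa to 1.11, Gpihbp1 to 1.85, Klb to 0.24, Mpc1 to 0.75, Mpc2 to 0.56, Oxct1 to 0.19, Pdk1 to 0.66 and Psat1 to 0.45, and limma on TPM turned Angptl8 to 1.03, Etfa to 1.22, Gpihbp1 to 1.78, Klb to 0.085, Mpc1 to 0.74, Mpc2 to 0.12, Oxct1 to 0.78, Pdk1 to 0.94, Psat1 to 0.29 and Thrsp to 0.19. With library totals the median of all genes in pancreas moved from 0.09 to 2.29. Over all genes, library totals gave 878 higher and 241 lower in the kallisto livers (218 and 418 with TMM) and 7848 and 223 for pancreas minus liver (1368 and 1001), where the block gave 1130 and 489, and median centring gave 270 and 458 in the TPM-table livers (698 and 214) and 1409 and 1843 over both sets (3107 and 855). DESeq2 gave 1290 and 1061 in the kallisto livers, limma on TPM 549 and 193 there and 11405 and 152 in pancreas, no filter 39 and 15 in the TPM-table livers, and the block 453 and 2149 for lung minus liver (261 and 1187). Median centring turned Ehhadh in the TPM-table livers to -0.090, and Cpt1a and Vnn1 over both sets to -0.15 and -0.078. Leaving out 1 mouse, Fgf21 in the TPM-table livers ran from -0.91 to 0.55 and Vnn1 in lung from -0.34 to 0.18. For pancreas minus liver, library totals turned Cyp4a10 to 1.53, Cyp4a14 to 2.003 and Pdk4 to 0.59, and leaving out 1 mouse gave -1.75 to 3.17 for Cyp4a10 and -1.34 to 9.74 for Cyp4a14, whose upper end is fitted against a library with 0 counts and is no bound. For lung minus liver, a pseudocount of 0.1 turned Cyp4a14 to 0.87, and leaving out 1 mouse gave -0.31 to 2.58 for Cyp4a10, -2.10 to 1.27 for Cyp4a14, -0.51 to 0.088 for Cpt1a, -0.96 to 0.22 for Acot1 and -0.040 to 0.70 for Ehhadh. With a hepatocyte marker covariate in lung, added after seeing the data, 4 genes were still called and Cyp4a10 was 2.20. Over all 13634 genes tested in lung, 2078 were then higher and 2853 lower, against 2191 and 2841 without the covariate. The number of calls over all genes thus hardly moved either, and the part of hepatocyte RNA in these 4 calls was not otherwise tested. Only 2 controls limit the kallisto set, and the depth of the TPM table is unknown.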
